A study of Rattus norvegicus with 10 samples.

Results

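The clock output factors described here are 8 genes: Dbp, Tef, Hlf, Nfil3, Ciart, Bhlhe40, Bhlhe41 and Rorb. They were taken by name from the 32402 genes listed in the count table, each symbol belonged to 1 Ensembl identifier, and all 8 passed the filter on low counts that left 15311 genes to test. RNA sequencing measured polyadenylated transcripts of the supraoptic nucleus, a hypothalamic cluster of large neurosecretory neurones that make vasopressin and oxytocin, in Wistar Han rats. The euhydrated group (5 libraries) drank freely, and the dehydrated group (5 libraries) had its drinking water removed for 72 h. Tissue came as bilateral punches with a 1 mm corer from 12 slices per brain, so it also holds glia, vessels and neighbouring neurones, and the animal work was done between 10 am and 12 pm. The sources used here do not state age, sex, the light schedule or the order of sampling within that window. Cages were allotted to treatment at random, and nothing says that a library is 1 animal. The p-values therefore reflect only how these libraries vary, which may be partly technical.

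The circadian clock is a loop in which CLOCK and BMAL1 proteins bind E-boxes in DNA and switch on genes whose products, among them the period, cryptochrome and REV-ERB (Nr1d1, Nr1d2) proteins, switch the loop off again. Output factors carry that rhythm to other genes. Dbp, Tef and Hlf encode the PAR bZIP activators, leucine zipper proteins that bind D-boxes, and Nfil3 encodes a bZIP repressor of the same sites. Bhlhe40 and Bhlhe41 encode the basic helix-loop-helix repressors DEC1 and DEC2, which compete at E-boxes, and Ciart encodes a repressor of CLOCK and BMAL1. Rorb encodes a nuclear receptor that activates ROR elements and is neither a bZIP nor a bHLH protein. The hypothalamic suprachiasmatic nucleus, the master clock, lies near the supraoptic nucleus.

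Sequence upstream of the transcription start was at hand for 7 members (all but Hlf) in RefSeq's promoters of the build GRCr8. The 250 bases before each start were searched on both strands for the E-box CACGTG, the D-boxes TTACGTAA and TTATGTAA, the ROR elements TAGGTCA and TGGGTCA, the cAMP response element TGACGTCA and the glucocorticoid response element core ACANNNTGT. An E-box lay in 4 of the 7 windows, against 5.59% of 33469 promoters of the same length. These 4 windows are shown because E-boxes are where the clock loop acts, with the E-box in capitals. They are Tef (chr7:115206577-115206826, plus strand), Bhlhe41 (chr4:180569356-180569605, minus strand), Bhlhe40 (chr4:143174200-143174449, plus strand) and Ciart (chr2:186112247-186112496, minus strand).
Tef: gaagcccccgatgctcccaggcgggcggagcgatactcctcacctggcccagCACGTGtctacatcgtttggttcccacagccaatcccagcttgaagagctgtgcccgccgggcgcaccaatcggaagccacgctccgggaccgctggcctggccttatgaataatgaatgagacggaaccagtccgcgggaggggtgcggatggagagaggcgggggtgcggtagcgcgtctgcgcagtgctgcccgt
Bhlhe41: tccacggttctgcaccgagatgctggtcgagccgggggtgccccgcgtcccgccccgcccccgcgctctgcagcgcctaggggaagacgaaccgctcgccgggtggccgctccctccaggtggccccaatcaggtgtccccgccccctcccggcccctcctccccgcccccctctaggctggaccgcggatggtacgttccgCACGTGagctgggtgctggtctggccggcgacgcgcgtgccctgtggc
Bhlhe40: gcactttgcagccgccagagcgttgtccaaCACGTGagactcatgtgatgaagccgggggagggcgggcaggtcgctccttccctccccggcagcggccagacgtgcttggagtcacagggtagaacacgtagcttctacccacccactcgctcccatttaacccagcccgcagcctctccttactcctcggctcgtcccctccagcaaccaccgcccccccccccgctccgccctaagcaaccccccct
Ciart: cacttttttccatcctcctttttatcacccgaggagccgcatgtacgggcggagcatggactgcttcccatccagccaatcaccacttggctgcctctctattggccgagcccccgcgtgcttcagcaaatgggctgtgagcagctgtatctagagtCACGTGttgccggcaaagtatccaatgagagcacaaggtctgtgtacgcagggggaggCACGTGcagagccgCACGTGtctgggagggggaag
The E-box of Tef began 198 bases before the start, that of Bhlhe41 48 and that of Bhlhe40 220. Ciart held 3, beginning 93, 35 and 21 bases before the start. Of these 4 genes Tef and Bhlhe41 fell in dehydrated libraries, while Bhlhe40 and Ciart did not pass the test, as given below. A match is a string of letters, not a measured binding site, and no match says only that these letters are not in this window.

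Of the 8 output factors 3 fell after water deprivation, Dbp, Tef and Bhlhe41, and 0 rose with edgeR (Nfil3 was higher at an unadjusted p under 0.05 and with DESeq2). The median log2 fold change of the 8, dehydrated over euhydrated, was -0.23, against -0.0058 over all genes tested, and 7 of the 8 estimates were below 0, the exception being the repressor Nfil3. Across the 15311 genes tested 12.7% passed the same threshold, an edgeR adjusted p under 0.05, with 7.79% higher and 4.9% lower in dehydrated libraries (1192 and 750 genes; 904 and 1173 when library totals replaced TMM scaling, with the median of all genes at -0.033). The members were chosen with results of these data known, so these counts describe them and test nothing about them as a set. Levels below are CPM, counts scaled to library size with TMM factors, as mean ± SD over 5 libraries, and libraries carry the number of their column in the count table. In whole punches, fewer cells of a type and less RNA per cell cannot be told apart.

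**Figure D1:**
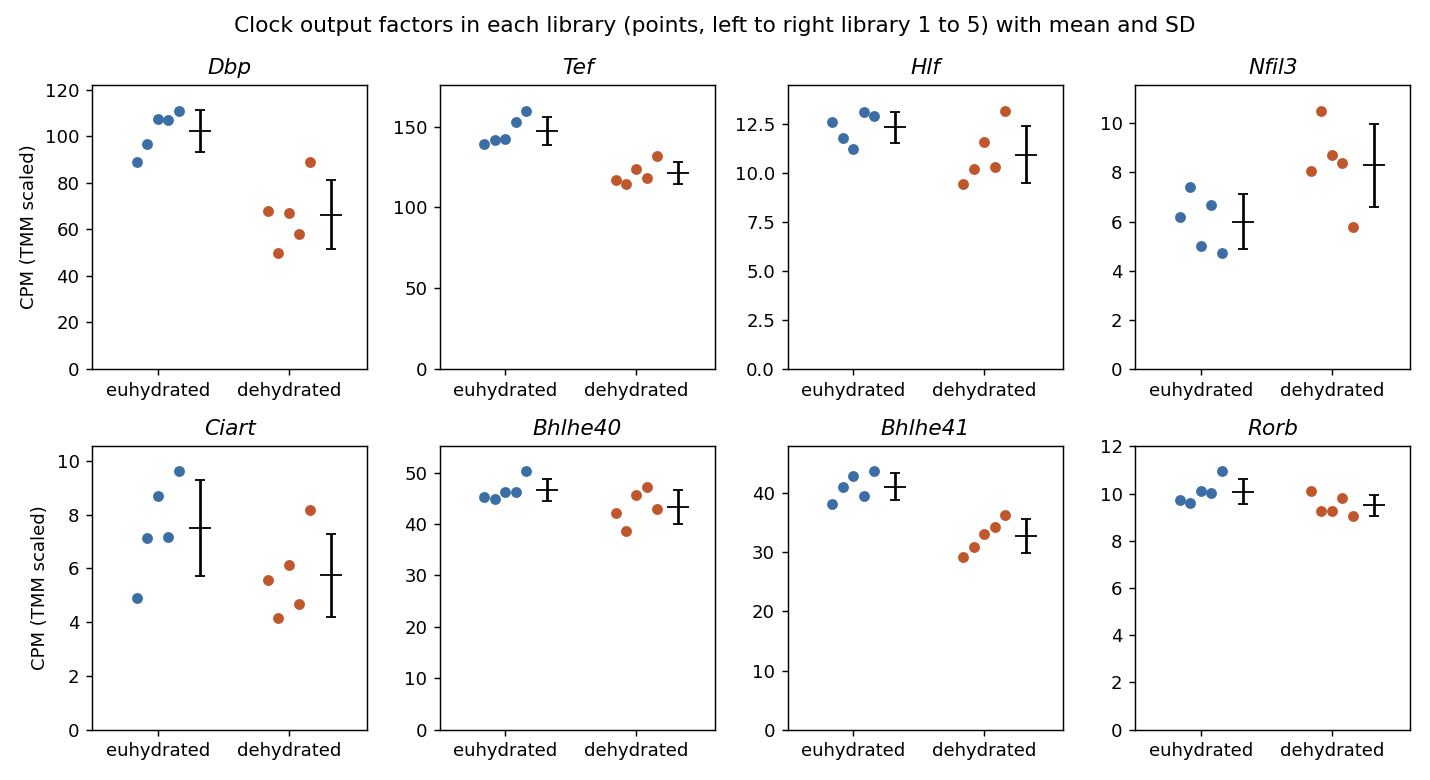
Level of each clock output factor (CPM, vertical axis from 0) in the 5 euhydrated (blue) and 5 dehydrated (orange) libraries, 1 point per library, with mean and SD as a black bar. Tef and Bhlhe41 separated the groups with dehydrated libraries lower, an order that 3.97% of all genes tested showed. Dbp met at 89.2 CPM, and Hlf, Nfil3, Ciart, Bhlhe40 and Rorb overlapped.

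Dbp, a PAR bZIP factor known for a deep daily swing in many tissues, showed the largest fall of the 8. Its level was 89.2, 96.6, 107, 107 and 111 CPM in euhydrated libraries 1 to 5 and 67.8, 49.6, 67.1, 58.1 and 89.2 CPM in dehydrated libraries 1 to 5. Dehydrated 5 stood at the level of euhydrated 1, and the other 4 dehydrated libraries lay below every euhydrated one. In the authors' deposited table these libraries lie in the reverse order, with 2375.2 normalised counts in dehydrated 5 and 2374.0 in euhydrated 1, so whether the groups overlap turns on the scaling. The mean was 1.54-fold lower, 66.3 ± 14.7 against 102 ± 9.07 CPM, or -0.62 ± 0.14 on the log2 scale (SE; edgeR adjusted p = 0.0235). It also passed with DESeq2 run here (adjusted p = 0.000911), with limma-voom (0.00247) and in the authors' deposited DESeq2 values (0.000917). In edgeR, leaving out any of euhydrated 3, 4 and 5 or dehydrated 1, 3 and 4 ended the call. The changes were then -0.63 to -0.58 (edgeR adjusted p of 0.050 to 0.0553), whereas leaving out dehydrated 5 gave -0.75 (0.0014). Erythrocyte markers moved the same way: their summed level was 993 to 1980 CPM in euhydrated and 579 to 1400 CPM in dehydrated libraries, with 1 of 6 tested genes (Slc4a1) past the threshold. With their mean as a covariate the change was -0.75 ± 0.21 (SE; edgeR adjusted p = 0.107).

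None of the motifs searched lay in the window of Dbp, at chr1:105312006-105312255, plus strand. It is shown as that of the member with the largest fall.
Dbp: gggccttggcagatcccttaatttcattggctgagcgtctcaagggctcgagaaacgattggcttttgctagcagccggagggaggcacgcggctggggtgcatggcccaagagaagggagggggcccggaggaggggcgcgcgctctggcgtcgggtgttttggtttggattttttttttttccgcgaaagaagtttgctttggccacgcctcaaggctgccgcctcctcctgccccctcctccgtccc

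Tef, for the PAR bZIP thyrotroph embryonic factor, fell by less but with less spread. It was measured at 140, 142, 142, 153 and 160 CPM in euhydrated libraries 1 to 5 and at 117, 115, 124, 118 and 132 CPM in dehydrated libraries 1 to 5. Every dehydrated library lay below every euhydrated one, an order that 3.97% of all genes tested showed. The mean was 1.22-fold lower (121 ± 6.84 against 147 ± 8.72 CPM, log2 fold change -0.28 ± 0.05, SE; edgeR adjusted p = 0.000636). Hlf, the third PAR bZIP gene, did not pass. Its levels were 12.7, 11.8, 11.3, 13.1 and 12.9 CPM in euhydrated and 9.47, 10.2, 11.6, 10.3 and 13.2 CPM in dehydrated libraries 1 to 5. Dehydrated 5 was the highest of all 10 libraries and dehydrated 1 the lowest. The log2 fold change of Hlf was -0.17, with a 95% interval of -0.36 to 0.01 (edgeR adjusted p = 0.223), so neither no change nor a fall of the size seen in Tef lies outside it.

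Nfil3, the repressor that competes with the 3 PAR bZIP proteins at D-boxes, was the member whose estimate was positive. Its levels were 6.18, 7.41, 5.02, 6.66 and 4.71 CPM in euhydrated libraries 1 to 5 and 8.05, 10.5, 8.72, 8.39 and 5.76 CPM in dehydrated libraries 1 to 5. Dehydrated 5 lay inside the euhydrated range, and the other 4 dehydrated libraries lay above it. The log2 fold change was 0.47 ± 0.16 (SE), 8.28 ± 1.70 against 5.99 ± 1.12 CPM, and did not pass (edgeR adjusted p = 0.0657). It passed in the authors' deposited table, which also came from DESeq2 (adjusted p = 0.0253), and with DESeq2 run here (0.0266). In edgeR it passed without dehydrated 5 (0.0124, at 0.57) or without euhydrated 2 (0.0384, at 0.56). Under 17 of the 21 alternatives run here it did not pass, limma-voom among them (adjusted p = 0.0714). The window before Nfil3 (chr17:12432126-12432375, plus strand) held 1 glucocorticoid response element core, in capitals, starting 122 bases before the start. Of all promoters 5.81% held this core. The window is shown as that of the 1 member with a match other than an E-box.
Nfil3: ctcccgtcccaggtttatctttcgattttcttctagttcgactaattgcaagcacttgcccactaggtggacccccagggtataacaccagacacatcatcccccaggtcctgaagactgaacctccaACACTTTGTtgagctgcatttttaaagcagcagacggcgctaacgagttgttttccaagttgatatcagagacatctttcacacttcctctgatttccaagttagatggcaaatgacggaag

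The count of Nfil3 relative to that of Dbp within each library needs no scaling between libraries. It was 0.0693, 0.0766, 0.0467, 0.0623 and 0.0424 in euhydrated libraries 1 to 5, and 0.119, 0.212, 0.130, 0.144 and 0.0646 in dehydrated libraries 1 to 5. The ratio thus lay above the euhydrated range in 4 of the 5 dehydrated libraries and inside it in dehydrated 5. On average it was 2.16-fold higher in dehydrated libraries, and 1.11 higher on the log2 scale (0.92 to 1.35 with each library left out in turn). This ratio joins 2 members chosen with results known and is given with no test.

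**Figure D2:**
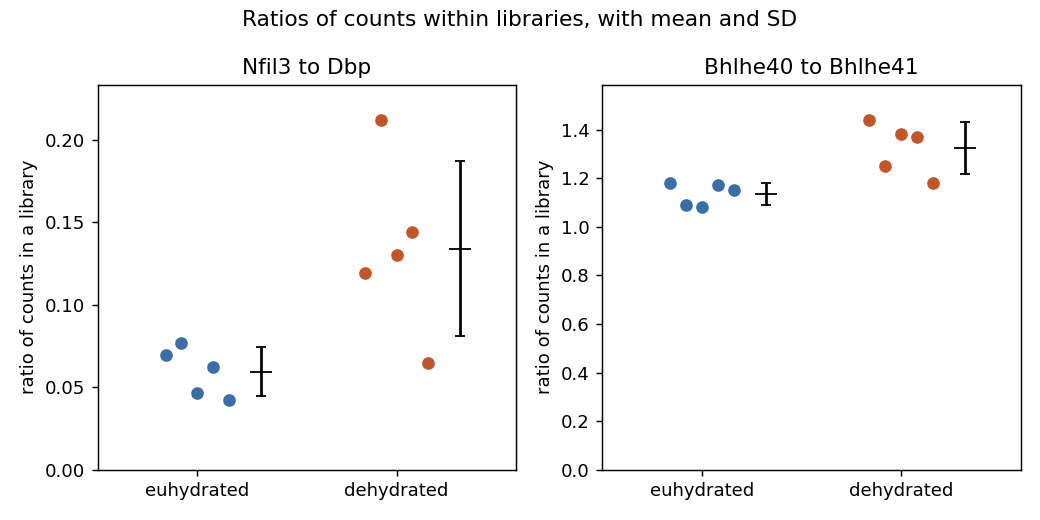
Ratio of the counts of Nfil3 to Dbp (left) and of Bhlhe40 to Bhlhe41 (right) within each library, vertical axes from 0, with mean and SD as a black bar. Dehydrated 5 is the lowest dehydrated point in both panels, at 0.0646 and 1.18.

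The bHLH repressor gene Bhlhe41 fell and its relative Bhlhe40 did not pass. Bhlhe41, which encodes DEC2, stood at 38.2, 41.1, 42.9, 39.6 and 43.7 CPM in euhydrated libraries 1 to 5 and at 29.2, 31.0, 33.1, 34.4 and 36.4 CPM in dehydrated libraries 1 to 5. The groups did not overlap, with dehydrated libraries lower, as in 3.97% of all genes tested. The mean was 1.25-fold lower (32.8 ± 2.82 against 41.1 ± 2.26 CPM, log2 fold change -0.33 ± 0.06, SE; edgeR adjusted p = 0.00159). Bhlhe40, which encodes DEC1 and is also induced by cell activity and stress in many tissues, was measured at 45.3, 44.9, 46.2, 46.2 and 50.2 CPM in euhydrated libraries and at 42.2, 38.7, 45.6, 47.2 and 42.9 CPM in dehydrated libraries 1 to 5. Dehydrated 3 and 4 lay within the euhydrated range and the other 3 below it. Its log2 fold change was -0.10, with a 95% interval of -0.22 to 0.01 (edgeR adjusted p = 0.22), which leaves room for a fall of 0.22 and no rise above 0.01. Within libraries the ratio of Bhlhe40 to Bhlhe41 counts was 1.08 to 1.18 in euhydrated and 1.18 to 1.44 in dehydrated libraries, 1.17-fold higher on average, again with no test.

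Ciart, the repressor with 3 E-boxes in its window, had the widest interval of the 8. It was measured at 4.92, 7.12, 8.68, 7.15 and 9.60 CPM in euhydrated and at 5.57, 4.17, 6.13, 4.68 and 8.16 CPM in dehydrated libraries 1 to 5. Both groups spanned a wide range and overlapped, with euhydrated 1 at the low and dehydrated 5 at the high end of its group. The log2 fold change was -0.38 (95% interval -0.83 to 0.06, edgeR adjusted p = 0.259), and it was -0.54 without dehydrated 5 (0.0793). Its counts were 107 to 265 per library, so counting error is a larger share of its level than of that of Tef, with 2812 to 4413. Rorb, with 226 to 302 counts, had an SD of 0.52 CPM at a mean of 10.1 CPM in euhydrated libraries. For Ciart the SD was 1.79 CPM at a mean of 7.5 CPM in the same libraries, and 1.55 CPM at 5.74 CPM in dehydrated ones. The source of the spread of Ciart was not tested.

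Rorb, a nuclear receptor known from the suprachiasmatic nucleus, retina and sensory cortex, showed the smallest estimate. Its levels were 9.72, 9.62, 10.1, 10.0 and 10.9 CPM in euhydrated and 10.1, 9.27, 9.28, 9.82 and 9.04 CPM in dehydrated libraries 1 to 5. The groups overlapped, and the log2 fold change was -0.09 (95% interval -0.23 to 0.06, edgeR adjusted p = 0.464). Markers of suprachiasmatic neurones were low, with Six6 below the filter. Their sums were similar in range, 56.5 to 65.7 CPM in euhydrated and 57.2 to 67.6 CPM in dehydrated libraries. Zfhx3 and Rgs16 made up most of each sum, at means of 25.6 and 20.6 CPM in euhydrated libraries. Of the 8 markers tested 1 rose, Prok2, which encodes a secreted clock output peptide, from 0.281 to 1.36 CPM (edgeR adjusted p = 2.27e-05). The mean log2 CPM of the markers was 0.252 higher in dehydrated libraries. Once Prok2 was left out, it differed by -0.00281. Markers of cortical and amygdalar excitatory neurones varied between libraries, 35.8 to 116 CPM summed against 34.6 to 87.8 CPM, and 0 of 6 passed with edgeR (0 at an unadjusted p under 0.05, and 0 with DESeq2 or limma-voom). Rora, for a nuclear receptor related to that of Rorb, at 2.85 CPM in euhydrated libraries, differed by -0.35 on the log2 scale (edgeR adjusted p = 0.0998).

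**Figure D3:**
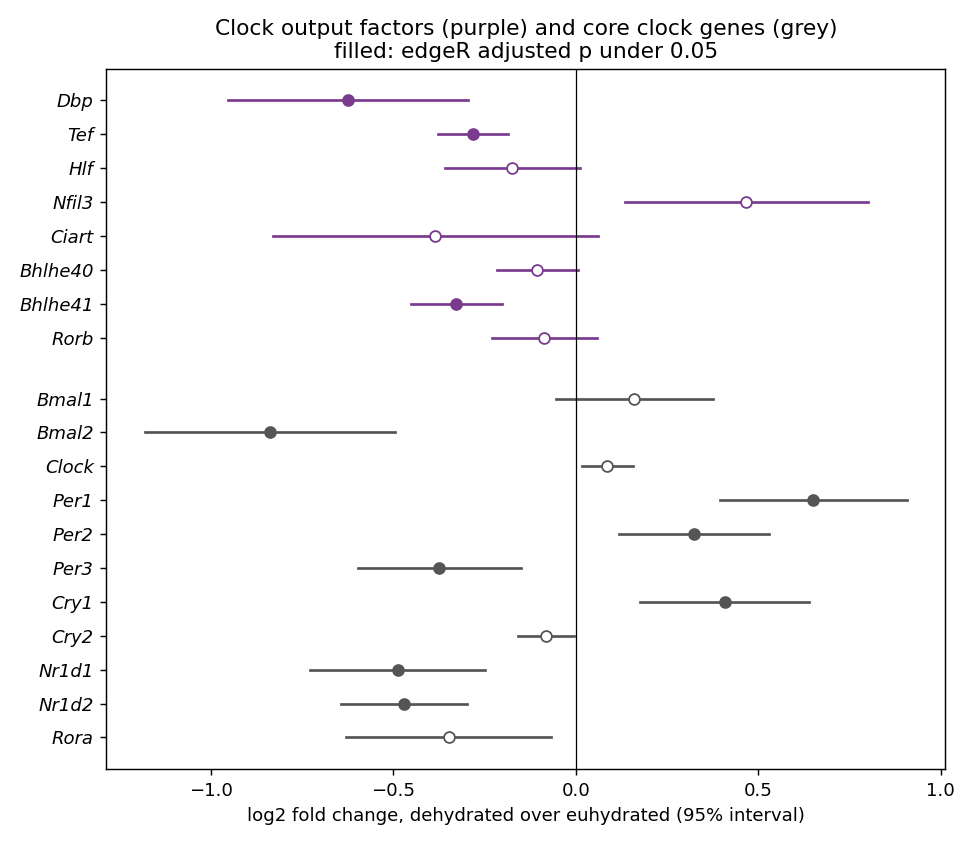
Log2 fold change, dehydrated over euhydrated, with 95% interval for the 8 output factors (purple) and 11 core clock genes (grey, Bmal1 and Bmal2 being Arntl and Arntl2). Filled points passed an edgeR adjusted p of 0.05: 3 output factors, all lower, and 7 core genes, 3 higher and 4 lower.

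Among core clock genes the calls went in both directions. Of 17 core clock genes tested 3 rose (Per1, Per2 and Cry1), 4 fell (Nr1d1, Nr1d2, Per3 and Arntl2) and 10 did not pass, and their median log2 fold change was -0.0010. Nr1d1 and Nr1d2, the REV-ERB repressors known to hold down Arntl and Nfil3, fell from 93.4 to 66.6 and from 99.5 to 71.9 CPM (log2 fold changes -0.49 and -0.47; edgeR adjusted p = 0.016 and 0.0024). Among the period and cryptochrome genes Per3 changed by -0.37 on that scale (edgeR adjusted p = 0.0344), while Per1, Per2 and Cry1 stood at 0.65, 0.32 and 0.41 (0.00467, 0.0423 and 0.023). The calls of Per2 and Per3 were each lost in 8 of the 10 fits without 1 library, and that of Cry1 without euhydrated 1 or 4. Arntl2 fell from a low 1.99 CPM (log2 fold change -0.84, edgeR adjusted p = 0.00275). Arntl (Bmal1) and Clock, the loop's activators, did not pass at 0.16 and 0.09 (edgeR adjusted p = 0.336 and 0.0946), nor did Cry2 at -0.08 (0.168). Without euhydrated 1 Arntl stood at 0.25 and passed (edgeR adjusted p = 0.0457).

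Within each group the output factors also varied, as did the core genes. Among dehydrated libraries, dehydrated 5 was the highest for Dbp, Tef, Hlf, Ciart, Bhlhe41, Nr1d1, Nr1d2 and Per3, and the lowest for Nfil3, Arntl, Cry1, Per1 and Rorb. Dehydrated 2 was the lowest for Dbp, Tef, Ciart, Bhlhe40, Nr1d1, Nr1d2 and Cry2 and the highest for Nfil3, Cry1 and Per2. Among euhydrated libraries, euhydrated 5 was the highest for Dbp, Tef, Ciart, Bhlhe40, Bhlhe41, Rorb, Per3 and Clock and the lowest for Nfil3 and Arntl. Euhydrated 1 was the lowest for Dbp, Tef, Ciart, Bhlhe41, Per3 and Cry1 and the highest for Arntl and Rora. Cry1 was thus lowest where Dbp was lowest among euhydrated libraries, and highest where Dbp was lowest among dehydrated ones. The level of Arntl was 33.7 CPM for euhydrated 1 but 23.0 CPM for euhydrated 5, a wider gap than that between its group means, 27.1 and 30.2 CPM. Whether libraries with high Dbp were sampled at another time within the window was not tested, since the labels give 1 window for all.

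**Figure D4:**
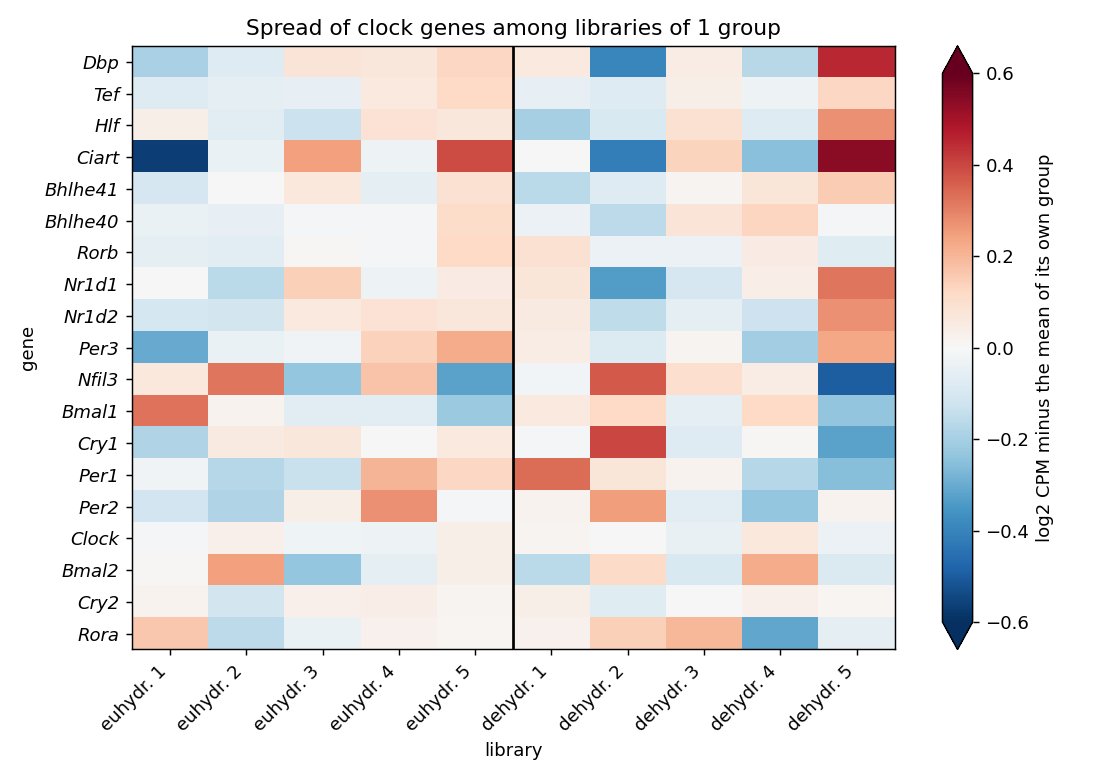
Log2 CPM of each output factor and core clock gene in each library minus the mean of its own group (colour), genes in rows and libraries in columns. Dehydrated 5 and euhydrated 5 are above their group means in Dbp, Tef, Ciart, Bhlhe41 and Per3 and below them in Nfil3 and Arntl (shown as Bmal1).

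Likeness of pattern over the 10 libraries was measured as the mean absolute difference between log2 CPM profiles, each centred on its own mean, among genes with a mean of at least 5 CPM. The difference between groups is part of each profile, so genes close to a member that fell were bound to fall by a like amount. Their changes describe the match and are no separate evidence. The closest to Dbp were Thsd7b (0.101), Nr1d2 (0.107) and Nr1d1 (0.123). Thsd7b changed by -0.51 on the log2 scale (edgeR adjusted p = 0.0248), which no longer passed once euhydrated 2, 3, 4 or 5 or dehydrated 4 was left out. The closest to Tef were Slc7a4 (0.0488), Pld5 (0.0498) and Nudt16l1 (0.0507), at -0.23, -0.29 and -0.26 in log2 (edgeR adjusted p of 0.00873, 0.0227 and 0.00117; the call of Pld5 was lost in 6 fits without 1 library). For Bhlhe41 they were Engase (0.0592), Tef itself (0.0595) and Babam2 (0.0607), Engase and Babam2 changing by -0.28 and -0.30 (edgeR adjusted p = 0.00383 and 0.000807).

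Known targets of the PAR bZIP factors gave no calls. Pdxk (pyridoxal kinase), Por and Alas1 were listed, with log2 fold changes of -0.07, -0.02 and -0.03. Of these 3, 0 passed with edgeR (0 at an unadjusted p under 0.05, and 0 with DESeq2 or limma-voom). Of genes tested whose promoter window held a D-box, 71 in all, 3 rose (4.23%) and 1 fell (1.41%), with a median log2 fold change of 0.0064. Among all 11488 genes tested with a window 8.37% rose and 5.01% fell, with a median of -0.0045. Where the window held an E-box, 96 of 919 genes rose (10.4%) and 42 fell (4.57%). For the other motifs searched, 49 of 316 genes rose (15.5%) and 11 fell (3.48%) with a cAMP response element, 33 of 398 rose (8.29%) and 23 fell (5.78%) with the glucocorticoid core, and 44 of 512 rose (8.59%) and 20 fell (3.91%) with a ROR element. These shares are descriptions, with no test. Of 5 tested genes rhythmic in many tissues (Usp2, Wee1, Tsc22d3, Dtx4 and Coq10b) 0 passed with edgeR, DESeq2 or limma-voom, and 1 was under an unadjusted p of 0.05 with edgeR, Tsc22d3 (0.0439).

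Glucocorticoids and neuronal activity are both known to act on clock genes. Of 14 glucocorticoid-responsive genes 10 rose (71.4%, against 7.79% of all genes tested), with a median log2 fold change of 0.75. Per1, also counted above as a core clock gene, was among those that rose. The lists were chosen with earlier results of these data known, so their shares describe them and test nothing about them as sets. The 4 that did not pass, Tsc22d3, Nfkbia, Ddit4 and Errfi1, also had estimates above 0. Largest among the 14 were the rises of Hif3a, 3.39-fold from a low 1.07 CPM (edgeR adjusted p = 1.51e-05), and Sult1a1, 2.10-fold (0.000143). Sgk1, for a salt- and steroid-induced kinase, was 2.06-fold higher (40.3 against 83.0 CPM, edgeR adjusted p = 0.00363). Of 14 activity-induced genes 4 rose (28.6%) and 10 did not pass, with a median log2 fold change of 0.38. Among those not past, Arc, Egr3 and Nr4a2 had estimates below 0 (-0.10, -0.38 and -0.03), the only 3 of the 14. Fosl1 had the largest rise of the 14 activity-induced genes, 10.5-fold from a low 0.759 CPM (edgeR adjusted p = 4.51e-08). It passed under all 21 alternatives. Nr4a1, an immediate early nuclear receptor gene, was 2.32-fold higher (edgeR adjusted p = 0.0132). Nr4a1 and Fos, another of the 4 that rose, lost their calls with the suprachiasmatic marker covariate (edgeR adjusted p = 0.0537 and 0.116). Both kept their calls once Prok2, itself higher in dehydrated libraries, was left out of that covariate (chosen after seeing the data). The part of glucocorticoids and neuronal activity in the levels of Dbp, Tef, Bhlhe41 and Nfil3 was not tested. Magnocellular markers, a check of the tissue, were abundant, at a summed 8010 to 11400 CPM in euhydrated and 11700 to 15500 CPM in dehydrated libraries. Avp and Oxt made up most of each sum, at means of 6153 and 2993 CPM in euhydrated libraries. Neither passed (edgeR adjusted p = 0.08 and 0.254). The 3 of 8 that rose were Caprin2, Pdyn and Scn7a. Otp, Pou3f2 and Slc17a6 did not pass, at log2 fold changes of 0.07, -0.05 and 0.08. Among the other marker lists 2 of 8 oligodendrocyte genes fell (9840 to 14300 against 9410 to 12000 CPM summed) and 1 of 6 precursor genes rose (341 to 380 against 351 to 420 CPM), while 0 passed with edgeR among 8 astrocyte, 8 microglial, 6 endothelial, 7 pericyte and muscle, 3 ependymal and 6 meningeal genes. Of those 38 genes 2 were higher and 5 lower at an unadjusted p under 0.05, DESeq2 called 1 higher and 1 lower, and limma-voom called 1 higher. Microglial genes made up 4 of the 5 lower ones and the 1 lower DESeq2 call, at a summed 255 to 295 CPM in euhydrated and 240 to 274 CPM in dehydrated libraries. Their part in the falls of Dbp, Tef and Bhlhe41 was not tested. The libraries held 24268398 to 28491926 counts each, and no member had fewer than 107 counts in any library.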

How the data were processed

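RNA sequencing libraries of 5 euhydrated and 5 dehydrated samples were compared. One deposited table holds whole-number read counts for each Ensembl gene. The tools named per the submitters' processing notes are STAR, featureCounts, DESeq2 1.28.1, CASAVA and FastQC; build and strand setting: not given in the sources used here. Their own comparison is a second deposited table: log2 fold changes, p-values, a Wald statistic (score) and normalised counts (signal), per the file headers; all normalised values (100%) equalled the count over 1 size factor, within 1% or 0.1. Columns C3 to C5 are tied to the euhydrated group only, because the labels number those samples in differing ways. No pair of libraries within a group agreed within sampling noise (chi-square over its degrees of freedom, 4.86 to 12.1).

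Genes passing filterByExpr were fitted with edgeR 4.0.16 (TMM, glmQLFit and glmQLFTest, robust) in R 4.3.3 without covariates, with Benjamini-Hochberg adjustment across every gene tested. Intervals use the fit's degrees of freedom; log2 CPM used a prior count of 2. DESeq2 1.42.0, limma-voom (limma 3.58.1), other scalings and filters, covariates, a block and each library left out were alternatives. The fit was tested on simulated data.

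Members and lists were chosen with earlier results of these data known. Named genes are the 8 members; core clock genes past the threshold or of the Per, Cry, Bmal1, Clock, Nr1d and Rora genes; up to 3 past the threshold with the largest change from each other process list; and the 3 closest profiles per member that passed. Prok2, Slc4a1, the magnocellular markers and the listed genes that did not pass were named after their values were seen. Levels are not compared between genes, since transcript lengths were not used.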

Additional observations from a re-analysis of the deposited data

Results flagged for a closer look

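Bhlhe40 in euhydrated 5 stood at 50.2 CPM, apart from the other 4 euhydrated libraries, the nearest of which was at 46.2 CPM; its gap was 0.748 of the group's range, above Dixon's 95% critical value of 0.71. With 16 such groups of 5 looked at, chance alone flags about 1 in 20. Without this library the log2 fold change of Bhlhe40 was -0.07 (edgeR adjusted p = 0.41).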

How the results depend on the processing

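The falls of Tef and Bhlhe41 kept their direction and stayed past the threshold under all 21 alternatives run, a threshold of 0.01 among them, at log2 fold changes of -0.31 to -0.25 and -0.41 to -0.29. All 8 members kept their direction under these alternatives. Dbp lost its call under 9 of them and Nfil3 gained one under 4. Between 1494 and 1756 genes passed with 1 library left out, against 1942 with all 10; so did 2 to 4 members (3 with all) and 5 to 6 core clock genes (7 with all). At an adjusted p of 0.01, 891 genes, 2 members and 3 core genes passed. With the erythrocyte covariate 676 genes passed; that level was itself 0.88 lower (log2) in dehydrated libraries. With the suprachiasmatic marker covariate 745 genes and 1 core clock gene passed, and Dbp went to -0.86 (edgeR adjusted p = 0.0677). This covariate was itself 0.252 higher (log2) in dehydrated libraries. Without Prok2 (chosen after seeing the data) it differed by -0.00281, and 2115 genes, 3 members and 6 core genes passed. Library totals in place of TMM factors moved the split of calls from 1192 higher and 750 lower to 904 and 1173, with 3 members lower in both. Over all genes tested, same-numbered libraries did not deviate together (correlations of -0.068 to 0.14, 1 of 5 above 0.1), and 1 of 5 dehydrated libraries was closest to its own number. Some members did: libraries numbered 5 were the highest of both groups for Dbp, Tef, Ciart and Bhlhe41 and the lowest for Nfil3. Rorb was highest in euhydrated 5 but lowest in dehydrated 5. Under a block by number the SE went from 0.155 to 0.097 for Nfil3, from 0.203 to 0.127 for Ciart and from 0.068 to 0.078 for Rorb. The labels do not say that equal numbers share a cage, day or litter. With a replicate block by column number 1956 genes and 4 members passed, Nfil3 among them at 0.46 (edgeR adjusted p = 0.00808), while core clock calls went from 7 to 6 (Per2 lost at 0.155) and Nr4a1 and Fos lost theirs (0.0995 and 0.118).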
